A study of Mus musculus with 5 samples.

Results

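The Irf4 gene and the 100 kb on each side of it were examined for binding of PU.1, the ETS-family transcription factor of myeloid cells and B cells. Windows were taken by position, on chromosome 13 from 30649233 to 30866981 of the mouse build mm10. It held 89 of the 329996 windows of 10 bp for which read counts were deposited, and 74 of them had enough counts to be tested. Tested windows at most 100 bp apart were joined, which gave 15 sites out of 60527 in the genome. The 15 windows that were not tested are accounted for below.

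PU.1 had been mapped by chromatin immunoprecipitation and sequencing (ChIP-seq) in conventional dendritic cells (cDCs), the antigen-presenting subsets, and in plasmacytoid dendritic cells (pDCs), known for making type I interferon. Both kinds came from Flt3L culture of cells from a strain labelled C56BL/6, with no genotype, treatment, age or time point given. Each had 2 PU.1 libraries, called biological replicates by the study, and 1 input library of cDC chromatin without antibody served both. A cDC culture of this kind is known to hold several cDC subsets, which were not separated in the labels, so a stronger signal per cell and a larger share of cells with signal cannot be told apart.

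Irf4 encodes an interferon regulatory factor that binds DNA weakly alone and is recruited by PU.1 or its relative Spi-B to composite ETS and IRF elements. It also binds with BATF and JUN proteins at AP-1 and IRF elements. IRF4 is known for its part in the development and migration of the cDC2 subset and in the differentiation of B cells into plasma cells. Its neighbours are Dusp22, a dual-specificity phosphatase that dampens T cell receptor signalling, and Exoc2, which encodes the Sec5 subunit of the exocyst, a complex that tethers secretory vesicles. PU.1 itself recognises a GAGGAA core within a longer purine-rich motif.

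The RefSeq gene spans were 30749233 to 30766981 for Irf4, 30660059 to 30711232 for Dusp22 and 30789516 to 30974096 for Exoc2. The RefSeq promoter table (GRCm38.p6, the patched form of the assembly behind mm10) places Irf4 and Dusp22 on the plus strand and Exoc2 on the minus strand, so the end of Irf4 and the end of Exoc2 face each other. The 250 bases before the starts of Irf4 (chr13:30748983-30749232) and Dusp22 (chr13:30659809-30660058) are shown because only weak PU.1 windows lay at or just after either start. Capitals mark the letters GAGGAA on either strand.
Irf4: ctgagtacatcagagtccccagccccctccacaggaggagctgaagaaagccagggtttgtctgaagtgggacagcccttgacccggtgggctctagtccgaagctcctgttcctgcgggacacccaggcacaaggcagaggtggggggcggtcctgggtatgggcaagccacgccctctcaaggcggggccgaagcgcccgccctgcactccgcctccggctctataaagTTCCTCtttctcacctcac
Dusp22: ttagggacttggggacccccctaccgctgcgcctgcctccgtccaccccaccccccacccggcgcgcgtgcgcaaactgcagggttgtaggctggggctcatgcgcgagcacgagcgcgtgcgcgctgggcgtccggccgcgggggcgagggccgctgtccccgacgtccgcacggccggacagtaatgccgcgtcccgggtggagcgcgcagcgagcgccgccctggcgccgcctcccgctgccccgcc
The Irf4 promoter held GAGGAA once, on the minus strand, beginning 19 bases before the start, and the Dusp22 promoter did not hold it. Of 32851 RefSeq promoter windows of the same length, 23.3% held it. Neither promoter held GGAA followed after 2 bases by GAAA, the letters of the composite ETS and IRF element (2.3% of promoter windows), nor GAAA followed after 2 bases by GAAA, those of an interferon-stimulated response element (2.98%). Both were searched on both strands, and they may overlap GAGGAA. G and C made up 63.6% of the Irf4 window and 77.6% of the Dusp22 window. At the Irf4 start itself 1 deposited window was listed, 23 bp into the gene, with 5 and 8 counts in the cDC libraries, 14 and 4 in the pDC libraries and 3 in the input, too few to be tested.

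Totals over all windows were 11034858 and 11388554 counts in the cDC libraries, 8099633 and 6896416 in the pDC libraries and 2776490 in the input, of which the interval held 3183, 3118, 2465, 1711 and 165. A read may be counted in several neighbouring windows, so these totals are not numbers of reads. Signal is given below as counts per 1e6 counts of the scaled library total (CPM), summed over the windows of a site. The pDC replicates lay farther apart than the cDC replicates, with a mean chi-square per window of 2.16 against 1.396, where counting error alone gives about 1. Every log2 fold is pDC minus cDC with its standard error (SE), from 2 libraries per cell type.

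PU.1 signal differed at 2 of the 15 sites, and they are neighbours on the upstream side of Irf4 with opposite directions. The site 10.6 kb before the Irf4 start was 2.72-fold higher in cDCs, and the site 4.6 kb before it was 2.68-fold higher in pDCs. Between them lay 5.64 kb without a deposited window. Across the genome 14.7% of sites were called, 8.38% higher in pDCs and 6.27% higher in cDCs, so 1 call in each direction among 15 sites is near the background rate. The remaining 13 sites had log2 folds between -0.37 and 1.19 and were not called (edgeR adjusted p between 0.116 and 0.945). The 2 groups of libraries did not overlap at 8 of the 15 sites, 6 with pDCs above and 2 with cDCs above. Over all sites in the genome the groups did not overlap at 58.4%, with pDCs above at 29.1% and cDCs above at 29.3%, so such a separation at 8 of 15 sites is no result about the interval.

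**Figure D1:**
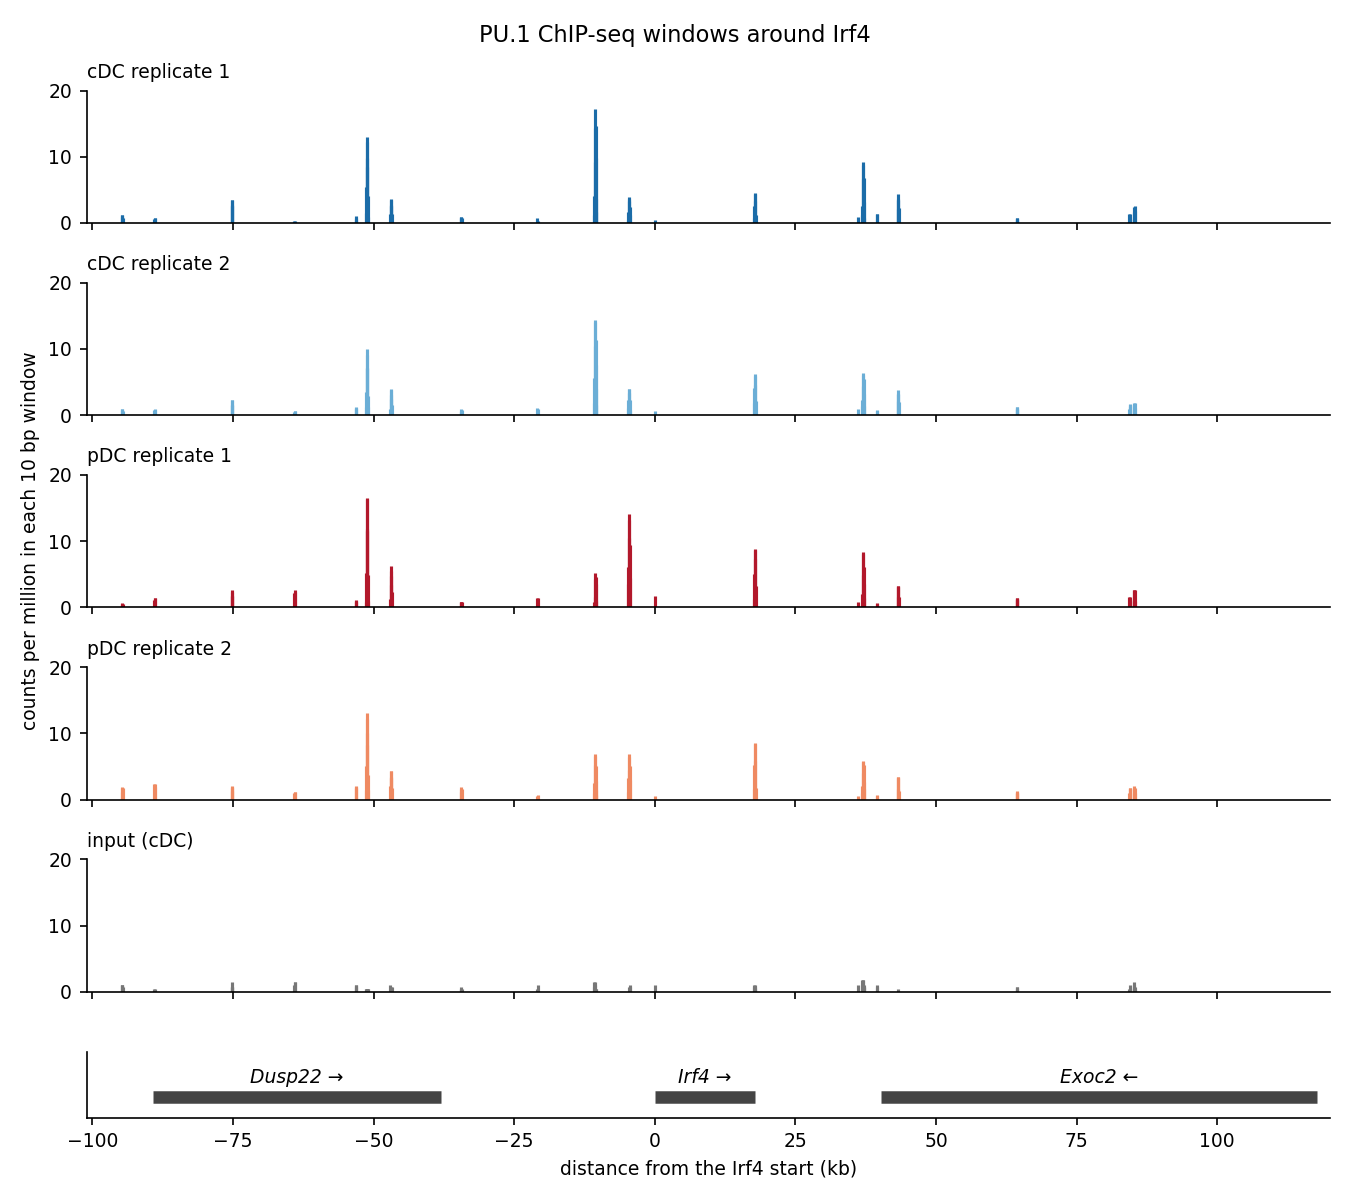
PU.1 signal in each deposited 10 bp window (vertical lines, CPM, same scale in every panel) against the distance from the Irf4 start in kb, for each PU.1 library and the input, with the 3 RefSeq gene spans at the bottom and arrows for their strands. The line 10.6 kb before Irf4 is the tallest in both cDC libraries, and the one 4.6 kb before it is among the tallest in pDC replicate 1 and lower in the other libraries.

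The site higher in cDCs lay at chr13:30738451-30738860, between Dusp22 and Irf4. It is 410 bp wide, has 9 windows and ends 10.4 kb before the Irf4 span, its nearest gene. Its summed signal was 75.8 and 70.5 CPM in cDC replicates 1 and 2 and 21.6 and 32.3 CPM in pDC replicates 1 and 2. Both cDC libraries were thus above both pDC libraries, and neither pair spread as far as the gap between them. The log2 fold was -1.45 ± 0.23 (edgeR adjusted p = 0.00254). In its highest window, the same in all 4 libraries, 196 and 173 counts stood against 41 and 45, and the input had 0 there. The input had 15 counts summed over the site. Of all sites in the genome 4.84% had as high a mean signal, and 5.49% had as low a log2 fold.

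The site higher in pDCs lay at chr13:30744501-30744810, 4.42 kb before the Irf4 span, with 7 windows over 310 bp. Its signal was 16.4 and 17.8 CPM in cDC replicates 1 and 2 and 61.2 and 30.3 CPM in pDC replicates 1 and 2. The cDC libraries were nearly equal, whereas pDC replicate 1 was well above pDC replicate 2, and both pDC libraries were above both cDC libraries. The log2 fold was 1.42 ± 0.31 (edgeR adjusted p = 0.00991). Without pDC replicate 1 it was 0.82, and without pDC replicate 2 it was 1.84. Scaling by 146 repeat windows, those with at least 1000 counts in the input, ended the call (1.03, edgeR adjusted p = 0.296). The window with the highest mean count held 45 and 47 counts in cDCs and 112 and 42 in pDCs before scaling. The input had 0 there and 7 counts over the whole site. That window was the highest in 2 of the PU.1 libraries, and the highest windows of the libraries spanned 100 bp. A mean signal as high was seen at 11.1% of all sites, and a log2 fold as high at 6.83%.

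**Figure D2:**
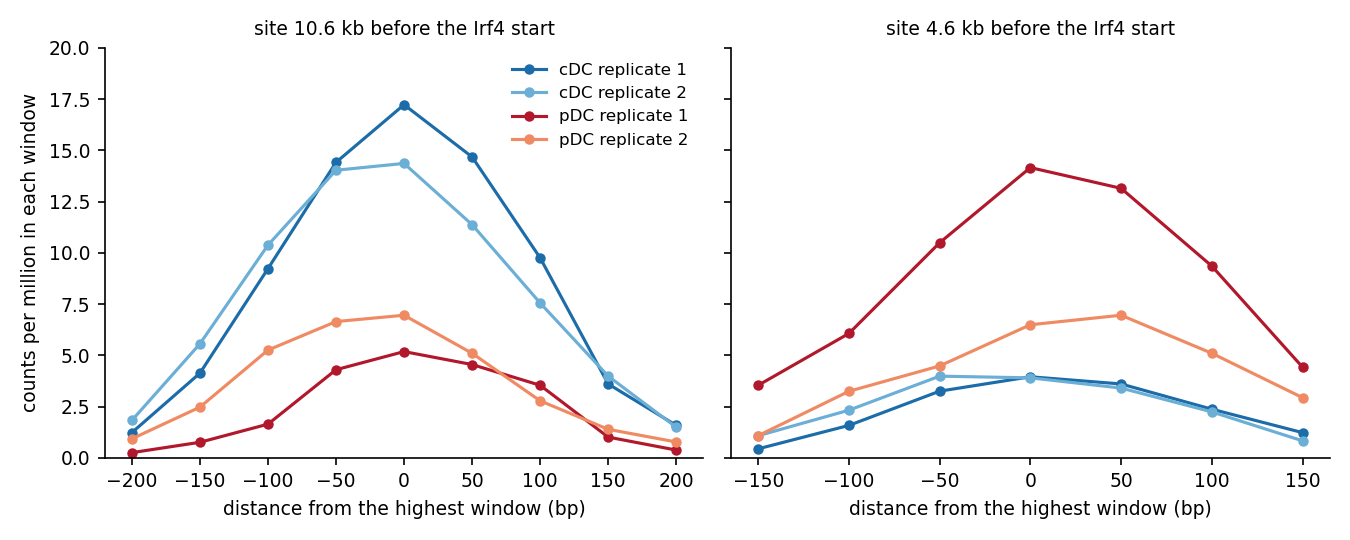
CPM in each window of the sites 10.6 kb (left) and 4.6 kb (right) before the Irf4 start, against the distance in bp from the site's highest window, 1 line per PU.1 library. Both cDC lines run above both pDC lines on the left, and on the right pDC replicate 1 runs highest throughout, followed in the central windows by pDC replicate 2 and then the cDC lines.

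A ratio between sites within 1 library does not depend on how libraries are scaled. The site 10.6 kb upstream held 4.61 and 3.97 times the counts of the site 4.6 kb upstream in cDC replicates 1 and 2. In pDC replicates 1 and 2 the same ratio was 0.353 and 1.07. Of these 2 sites, the outer thus held more counts in both cDC libraries and the inner more in pDC replicate 1. In pDC replicate 2 the counts at both were nearly equal. The mean log2 ratio differed by -2.80 between pDCs and cDCs. The 2 sites were paired because they were called in opposite directions, so this difference restates their folds. The exact two-sided permutation p was 0.333, the smallest that 2 libraries against 2 can give, and 0.417 when adjusted over the 10 ratios among the 5 sites described with full values.

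**Figure D3:**
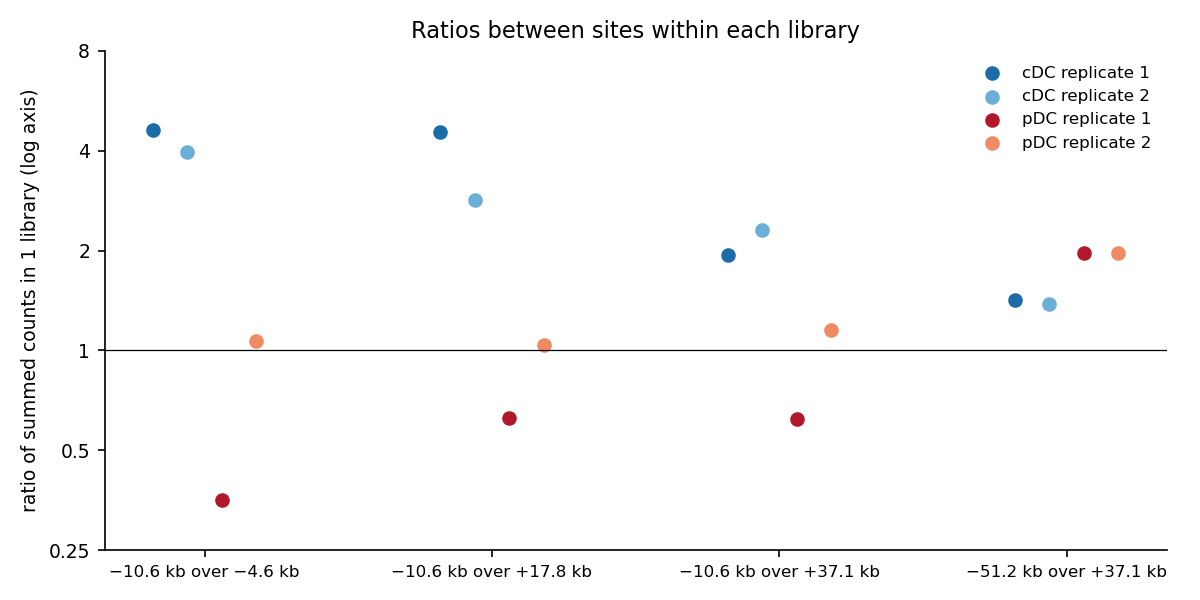
Ratio of summed counts between pairs of sites within each PU.1 library, on a log axis, with sites named by their distance from the Irf4 start. In the ratios that have the site 10.6 kb upstream on top, the cDC points lie between 1.94 and 4.61 and the pDC points between 0.353 and 1.15. The ratio of the sites 51.2 kb upstream and 37.1 kb downstream is 1.42 and 1.38 in cDC replicates 1 and 2. It is 1.96 and 1.97 in pDC replicates 1 and 2, above both cDC libraries.

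Of the 89 deposited windows of the interval, 3 touch the Irf4 span. Among these, 1 is the untested window at the start and the others belong to a site at the gene's end. That site, chr13:30766901-30767160, straddles the last base of the span, 17.8 kb after the start, and by position may belong to Irf4. Its signal was 16.6 and 24.9 CPM in cDCs and 34.5 and 31.2 CPM in pDCs. Both pDC libraries were above both cDC libraries, but the cDC pair was itself spread, and the log2 fold of 0.66 ± 0.27 was not called (edgeR adjusted p = 0.116). Without pDC replicate 2, a fit with no spread between pDC libraries, the log2 fold was 0.73.

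On the Dusp22 side, 7 sites had Dusp22 as the nearest gene, and none of them was called. The strongest site of the whole interval by mean signal was here, inside the Dusp22 span and 51.2 kb before the Irf4 start (chr13:30697901-30698260). It had 55.3 and 42.2 CPM in cDCs and 68.2 and 55.2 CPM in pDCs. The 2 groups overlapped narrowly, since cDC replicate 1 lay just above pDC replicate 2, and the log2 fold was 0.34 ± 0.22 (edgeR adjusted p = 0.320). Without pDC replicate 2 the log2 fold was 0.49. A second site inside Dusp22, 46.9 kb before Irf4, had 15.3 and 15.8 CPM in cDCs and 23.8 and 19.0 CPM in pDCs, without overlap and without a call (log2 fold 0.46 ± 0.28, edgeR adjusted p = 0.303). Near the Dusp22 start, a weak site 88.9 kb before Irf4 (chr13:30660251-30660360) had 2.02 and 2.49 CPM in cDCs and 3.92 and 6.49 CPM in pDCs. Its log2 fold of 1.19 ± 0.49 was not called (edgeR adjusted p = 0.124), and without pDC replicate 1 the log2 fold was 1.52. The other 4 sites nearest to Dusp22 had mean signals between 1.85 and 8.76 CPM, overlapping groups and edgeR adjusted p between 0.457 and 0.913. The strongest of these, 75.2 kb before Irf4 and inside Dusp22, had 12.2 and 7.55 CPM in cDCs and 8.47 and 6.80 CPM in pDCs (log2 fold -0.37 ± 0.39). The site 53.2 kb before Irf4, also inside Dusp22, had a log2 fold of 0.62 ± 0.50. The site 94.7 kb before Irf4 lies 5.50 kb before Dusp22 (0.13 ± 0.58), and the one 20.9 kb before Irf4 lies in the gap between the genes (0.39 ± 0.55).

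On the Exoc2 side, 5 sites had Exoc2 as the nearest gene, and none was called. The strongest, 37.1 kb after the Irf4 start (chr13:30786101-30786460), lies in the gap between the facing ends of Irf4 and Exoc2, 19.1 kb beyond the former and 3.06 kb beyond the latter. It had 39.0 and 30.6 CPM in cDCs and 34.8 and 28.0 CPM in pDCs, so the groups overlapped and the difference was -0.15 ± 0.24 on the log2 scale (edgeR adjusted p = 0.743). A site inside Exoc2, 43.3 kb after the Irf4 start, had 16.0 and 14.2 CPM in cDCs and 12.5 and 12.8 CPM in pDCs (log2 fold -0.25 ± 0.31, edgeR adjusted p = 0.647). The 3 sites farther inside Exoc2, at 64.4, 84.4 and 85.3 kb after the Irf4 start, had mean signals of 3.07, 5.14 and 7.51 CPM. Their log2 folds were 0.54 ± 0.50, 0.28 ± 0.43 and 0.06 ± 0.40, with edgeR adjusted p between 0.527 and 0.945. Nearest genes were assigned by position, and which gene a site acts on was not tested.

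**Figure D4:**
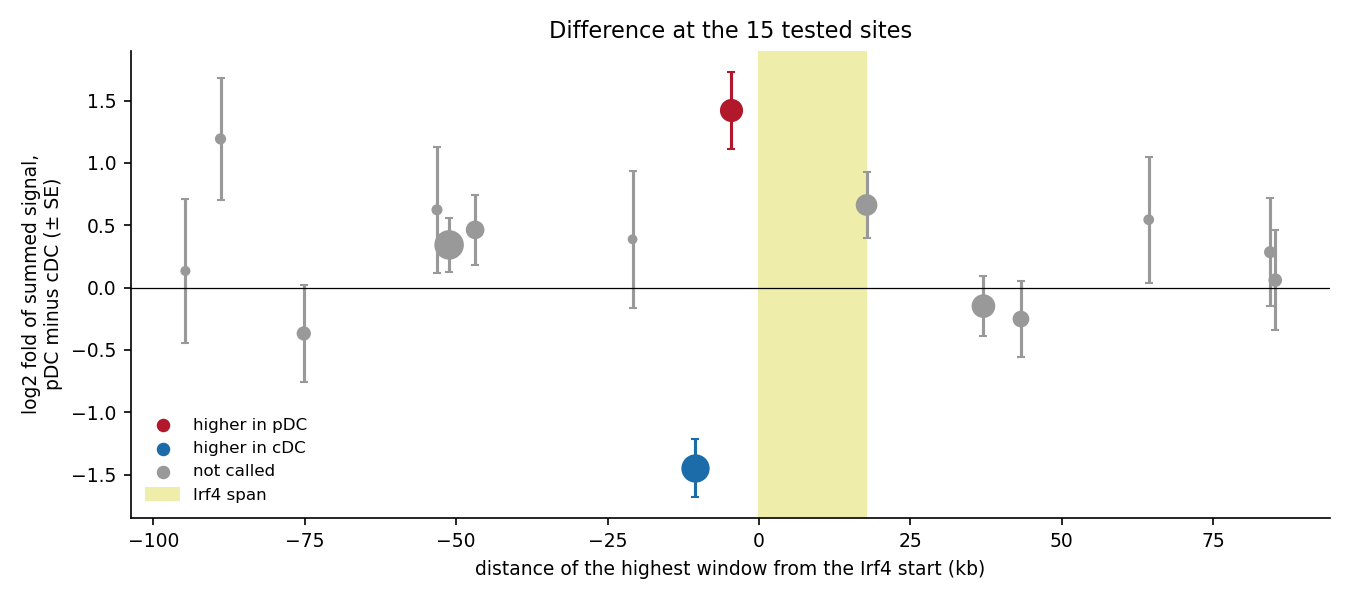
Log2 fold of the summed signal (pDC minus cDC, error bars are SE) at the 15 tested sites against the distance of each site's highest window from the Irf4 start in kb. Point size grows with mean signal, colour gives the call, and the shaded band is the Irf4 span. The points at -1.45 and 1.42 just upstream of the band are the called ones.

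The input serves as the background. In a fit of all 5 libraries scaled by their totals over windows, 7 of the 15 sites were above input in cDCs and 8 in pDCs, at an edgeR adjusted p below 0.05 and at least 2-fold. In the genome 48.6% of sites were above input in cDCs and 45.4% in pDCs. The site 10.6 kb upstream was 14.1-fold over input in cDCs and 4.74-fold in pDCs, both called (edgeR adjusted p = 1.58e-05 and 0.000725). The site 4.6 kb upstream was 7.05-fold over input in cDCs and 17.4-fold in pDCs, both called (edgeR adjusted p = 0.00275 and 0.000173). Each upstream site was thus above the background in both cell types by this scaling. The site inside Exoc2 43.3 kb after the Irf4 start had the largest folds, 42.0 in cDCs and 32.3 in pDCs, against a single input count. The sites at the Irf4 end, 51.2 and 46.9 kb upstream and 37.1 kb downstream were also above input in both, and the weak site near the Dusp22 start in pDCs only (6.73-fold, against 3.23-fold in cDCs, a contrast of this fit that was not tested). These counts rest on the scaling of the single input, in which repeat windows held 74.6% of counts. With totals outside the repeat windows 3 sites remained in each cell type. For cDCs these include the site 10.6 kb upstream and for pDCs the one 4.6 kb upstream, and the sites 51.2 kb upstream and 43.3 kb downstream belonged to both. Scaled by the repeat windows themselves, all 15 sites were above input in both.

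Of the 15 untested windows, 11 formed 5 further sites when no filter was used, with 1 to 4 windows each, and the other 4 joined tested sites. The one 64.0 kb before Irf4, inside Dusp22, had 8 and 20 summed counts in cDCs, 57 and 20 in pDCs and 11 in the input. On the CPM scale this was 0.703 and 1.66 in cDCs and 7.20 and 3.09 in pDCs, so both pDC libraries were above both cDC libraries. Scaled by its smaller total over windows, the input lay above both cDC libraries and pDC replicate 2 at this site, and below pDC replicate 1. In the unfiltered fit the site was called at 2.12 on the log2 scale (edgeR adjusted p = 0.0284). It was singled out after its values were seen. The others, at the Irf4 start and 34.4 kb before and 36.2 and 39.4 kb after it, had log2 folds between -0.74 and 1.13 and edgeR adjusted p between 0.266 and 0.695.

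Summed over the gene span and 10 kb on each side, Irf4 signal was 33.0 and 42.7 CPM in cDCs and 95.7 and 61.5 CPM in pDCs. Both pDC libraries were higher, which gave 1.06 ± 0.22 on the log2 scale (edgeR adjusted p = 0.00498), a 2.08-fold difference. Among the 15001 gene loci summed in this way 16.5% were called. The 13 windows behind the Irf4 value are those of the site 4.6 kb upstream and the site at the gene's end, and no other. The site higher in cDCs lies just beyond the 10 kb limit. With flanks of 12 kb, a width chosen after seeing the data, its 9 windows joined the sum and the log2 fold was -0.072 ± 0.15 (edgeR adjusted p = 0.797). It was 0.50 ± 0.41 for the span alone, -0.030 ± 0.13 with flanks of 50 kb and 0.071 ± 0.11 with flanks of 100 kb, the whole interval. None of these was called (edgeR adjusted p between 0.474 and 0.898). The locus call also ended without cDC replicate 1 (0.88, edgeR adjusted p = 0.0640), with repeat-window scaling (0.61, edgeR adjusted p = 0.834) and against a minimum fold of 1.5 (edgeR adjusted p = 0.115). Dusp22 had 89.4 and 73.1 CPM in cDCs and 109 and 96.6 CPM in pDCs (log2 fold 0.34 ± 0.15, edgeR adjusted p = 0.156). Without pDC replicate 2 its log2 fold was 0.42. Exoc2 had 156 and 145 CPM in cDCs and 159 and 136 CPM in pDCs (-0.027 ± 0.13, edgeR adjusted p = 0.922). The Exoc2 span runs past the end of the interval, so its sum of 49 windows includes windows that are not described here.

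**Figure D5:**
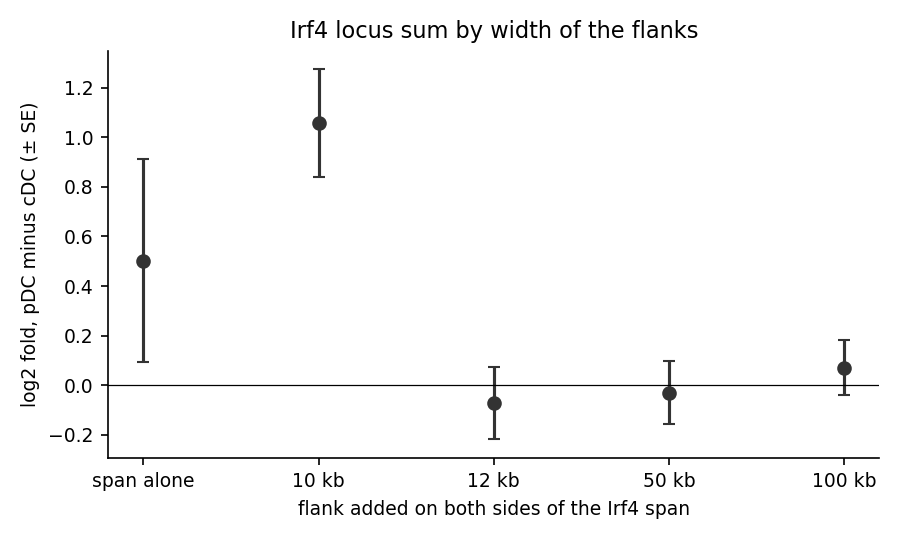
Log2 fold of the summed PU.1 signal of the Irf4 locus (pDC minus cDC, points with SE) for the gene span alone and with flanks of 10, 12, 50 and 100 kb on both sides. The value of 1.06 at 10 kb goes to -0.072 at 12 kb, where the site 10.6 kb upstream enters the sum.

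The loci with the pattern of levels most like that of Irf4 with flanks of 10 kb, by the Euclidean distance of log2 CPM over the 4 PU.1 libraries, were Avpr1b (distance 0.167), Tnni1 (0.168), Ech1 (0.212), C1rl (0.244) and Bean1 (0.258). In all, 50 of the 15001 loci lay within a distance of 0.5. Avpr1b, for example, had 35.5 and 41.9 CPM in cDCs and 96.7 and 67.2 CPM in pDCs.

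Other genes of the Irf4 network were counted by the same locus sums, in which a window can count for several genes. With repeat-window scaling 1 locus over all lists was called, Adgre1, so every other call named from here on ended under it. Of 29 loci of known partners and regulators of IRF4, the pDC signal was higher at 4 and the cDC signal at 2, and 23 had no call. Over all loci the shares were 9.49% and 7.01%. The median log2 fold was 0.11 in the list and 0.05 over all loci. Spib, the PU.1 relative that also recruits IRF4, had 39.6 and 57.4 CPM in cDCs and 152 and 100 CPM in pDCs (log2 fold 1.38 ± 0.21, edgeR adjusted p = 0.000887). Ikzf3, the lymphoid zinc-finger factor Aiolos (0.73), Zeb2, a repressor needed for pDC development (0.58), and Mitf, known to activate Irf4 in pigment cells (0.53), were also higher in pDCs. Swap70, a guanine nucleotide exchange factor whose relative Def6 binds IRF4 (-0.81), and Bcl6, a germinal centre repressor that IRF4 opposes (-0.47), were higher in cDCs. The Spib call held without either cDC library, while the calls of Ikzf3, Zeb2, Mitf, Swap70 and Bcl6 ended without cDC replicate 1 and without cDC replicate 2. With library-size scaling Spib was the only call higher in pDCs (Ikzf3, Zeb2 and Mitf then had edgeR adjusted p of 0.0809, 0.0621 and 0.0702) and both cDC calls held. Against a minimum fold of 1.5 the Spib call alone held. Without pDC replicate 2 more loci of the list were called. Over all sites, too, more were called in that fit, and fewer without either cDC replicate. Spi1, which encodes PU.1, was not called.

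A list of genes linked to IRF4 in dendritic cells or the B lineage had 23 measured loci. Whether IRF4 raises or lowers each gene was not tested. The pDC signal was higher at 4 of these loci and the cDC signal at 5, and 14 had no call. Over all loci the called shares were 9.49% higher in pDCs and 7.01% higher in cDCs. The median log2 fold of the list was -0.16. The cDC side held Ccl22 (-1.42 ± 0.32) and Ccl17 (-0.80 ± 0.13), chemokines that attract CCR4-bearing T cells, the cytokine genes Il12b (-0.85) and Il1b (-0.64) and the lectin gene Mgl2 (-0.70). Ccl17 had 227 and 191 CPM in cDCs and 126 and 113 CPM in pDCs. The pDC side held Dtx1, a Notch pathway ubiquitin ligase (1.37 ± 0.26), the lectin gene Clec10a (1.21 ± 0.23), Il4i1, an amino acid oxidase induced by interleukin 4 (0.96 ± 0.16), and Il21r, a cytokine receptor (0.50). Without cDC replicate 1 the list had 2 calls higher in pDCs, Dtx1 and Il4i1, and 0 higher in cDCs. Without cDC replicate 2 fewer loci of the list were called in each direction, and without either pDC replicate more were. Calls over all sites also fell without either cDC replicate and rose without either pDC replicate. Against a minimum fold of 1.5 only Dtx1 was called. Xbp1 was left out because it had no tested window. Of the 8 other IRF family loci 0 were called by edgeR or by DESeq2, and 3 had an unadjusted p below 0.05. Other edgeR settings called some of them. Irf2 was higher in cDCs with library-size scaling (-0.39, adjusted p = 0.0287) and without pDC replicate 1 or 2 (-0.26 in each). Irf1 was higher in pDCs where windows had a mean of at least 30 counts (0.76, adjusted p = 0.0207) and without pDC replicate 2 (0.72), where Irf9 was too (0.76). Irf8, the closest relative of Irf4, had 108 and 107 CPM in cDCs and 119 and 97.4 CPM in pDCs, and the groups overlapped.

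PU.1 signal at marker genes was set beside these values, and it describes binding and not RNA. Over all gene loci, 9.49% were called higher in pDCs and 7.01% higher in cDCs. Of 8 cDC marker loci 5 were higher in cDCs and 0 in pDCs (0 also at an unadjusted p below 0.05 and by DESeq2), with a median log2 fold of -0.50. Of 7 measured pDC marker loci 5 were higher in pDCs and 1, Pacsin1, in cDCs, with a median of 1.23. B cell markers moved in the direction of the Irf4 locus sum. Of 11 measured B cell loci 5 were higher in pDCs, namely Blk, Blnk, Ms4a1, Pax5 and Vpreb3, and 0 in cDCs (0 also at an unadjusted p below 0.05 and by DESeq2), with a median of 0.63. Their summed signal was 530 and 523 CPM in cDCs and 887 and 704 CPM in pDCs, and Cr2 had no tested window. With cDC replicate 1 or cDC replicate 2 left out, fewer cDC, B cell and pDC markers were called in their own direction, and the Pacsin1 call was lost. Fewer sites over the genome were called in those fits too. Against a minimum fold of 1.5, 2 cDC markers, 1 B cell marker and 3 pDC markers were called. Macrophage and neutrophil loci were higher in pDCs in 3 of 10 cases (Mertk, Mpo and Ly6g) and in cDCs in 2 (Adgre1 and Lyz2), with sums of 514 and 496 CPM in cDCs and 557 and 515 CPM in pDCs. All 3 of their pDC calls were lost without cDC replicate 1 and without cDC replicate 2, while the Adgre1 call held in both and that of Lyz2 without cDC replicate 2 only. The part of other cells in the Irf4 result was not tested.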

How the data were processed

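The authors deposited read counts per 10 bp window for 5 libraries, with no normalisation. Reads were 49 bp, single end, per the series design text, which calls the replicates biological. Subread 1.4.4 and mm10 are named in the submitters' processing notes; their role, any read extension and the choice of windows are unstated in the labels. The per-sample counts equalled the deposited table of the whole series in all 5 columns. The smallest sum over libraries was 33 counts, so weaker windows are not listed, and sequencing depth is unknown.

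Windows were kept by filterByExpr of edgeR 4.0.16 (minimum count 10; R 4.3.3, limma 3.58.1), which left 286435, and were joined when at most 100 bp apart, with a limit of 5000 bp. Counts summed over each site, or over each protein-coding gene span (RefSeq, GRCm38.p6) plus 10 kb, entered edgeR's quasi-likelihood test, fitted over all sites or all loci with TMM factors and a cell type term, and p-values were Benjamini-Hochberg adjusted with a threshold of 0.05. CPM are relative to the TMM-scaled total, and the SE is the one implied by the F statistic. The signal over input used totals without TMM, and its lone input was taken to vary as the PU.1 libraries do. Repeat windows are the 146 with at least 1000 input counts. DESeq2 1.42.0 and other settings were alternatives. The test was tried on simulated data. These had the same spread in every library, below that of the real sites, so the trial does not cover the noisier pDC replicates.

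Named are every gene and site of the interval, with full values for called sites and the 5 strongest, called genes of each list, and the 5 loci nearest to Irf4 in log2 CPM (prior count 2). The interval, lists and tests were chosen with earlier results of these data known.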

Additional observations from a re-analysis of the deposited data

How the results depend on the processing

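The call 10.6 kb upstream held under all 16 alternatives run, with log2 folds between -2.05 and -1.18, and the call 4.6 kb upstream under all but 1. Scaling by the repeat windows moved the median of all sites from 0.02 to -0.51; the log2 fold 4.6 kb upstream was then 1.03 without a call (adjusted p = 0.296), that of the site 51.2 kb upstream was -0.12, and 1 site of the interval was called. With library-size scaling the median was -0.10. Leaving out 1 library gave 2 to 4 called sites, and the site 37.1 kb downstream then lay between -0.32 and 0.031.

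The Irf4 locus fold of 1.06 lost its call with repeat-window scaling (0.61), against a minimum fold of 1.5 (1.06, adjusted p = 0.115), for the span alone (0.50) and with flanks of 100 kb (0.071), and lay at -0.072 with flanks of 12 kb or by nearest gene and at -0.030 with flanks of 50 kb; without 1 library it lay between 0.70 and 1.34. The number of sites above input went from 7 in cDCs and 8 in pDCs to 15 and 15 with repeat-window scaling and to 3 and 3 with totals outside the repeat windows. The causes were not tested. With the replicate number as a block, 2 sites were called and the Irf4 locus lay at 1.03. In the labels same-numbered libraries share a number, and whether they were prepared together was not tested (correlation of their deviations 0.01). With repeat-window scaling, 1 locus over all gene lists was called. Weak sites rest on few counts, where no call is not evidence of equal binding.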
